A study of Mus musculus with 8 samples.

Results

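The 10 genes described here encode the surface molecules, the enzyme and the feedback inhibitors with which a tissue cell can drive or restrain a T cell that touches it. They were listed by name, with earlier results of these arrays known. The list holds the costimulatory ligands Cd80, Cd86 and Icosl, the receptor Cd40 and the checkpoint ligands Cd274 and Pdcd1lg2. It also holds the galectin Lgals9, the enzyme Ido1 and the cytokine signalling inhibitors Socs1 and Socs3. Each was read from a probe set with exactly 1 gene symbol, the brightest one where a gene had several, and all 10 were found among the 22180 genes measured. Their RNA was measured in cells sorted from mouse colon on day 2 after a bone marrow transplant, at the onset of graft-versus-host disease (GVHD). All recipients were female C57BL/6 mice, conditioned for 5 days with busulfan and cyclophosphamide and then given bone marrow together with T cells. The allogeneic group (n = 4) had LP/J donors, a different strain whose T cells can recognise recipient tissue, and the syngeneic group (n = 4) had C57BL/6 donors. Every recipient had thus received chemotherapy and donor T cells, and no untreated mouse was among the samples. Age was not given in the sources used here. Cells were sorted as CD31-positive, CD45-negative and CD11b-negative, a gate for endothelium that removes leukocytes, and each RNA sample was read on its own Affymetrix Mouse Gene 2.0 array. Values are log2 signals normalized by robust multi-array averaging (RMA), so a step of 1 is a doubling of signal, and 4 arrays per group set the precision.

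A T cell that meets its antigen needs a second signal. CD80 and CD86 give it through CD28, and restrain the cell instead when they are bound by CTLA-4, while ICOS ligand acts through ICOS on T cells that are already activated. CD40 takes a signal the other way, from CD40 ligand on the T cell into the cell that carries CD40. PD-L1 (Cd274) and PD-L2 (Pdcd1lg2) engage PD-1 and dampen the T cell, galectin-9 (Lgals9) binds TIM-3 among other partners, and IDO1 breaks down the tryptophan that T cells need. Interferon gamma is a known inducer of Cd274, Ido1 and Socs1, and SOCS1 and SOCS3 limit signalling by interferons and by the IL-6 family. Endothelial cells are not professional antigen-presenting cells, but some of these molecules are known on activated endothelium.

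The sorted samples held RNA of more than 1 cell type, and this differed between arrays. The mean over 20 endothelial markers lay between 7.75 and 8.44 on allogeneic arrays and between 8.03 and 9.98 on syngeneic arrays, highest on syngeneic arrays 4 (9.98) and 3 (9.09), and all 20 had a negative log2 change. That over 20 colon epithelial markers lay between 10.5 and 10.6 on allogeneic and between 9.88 and 10.5 on syngeneic arrays, with syngeneic arrays 4 and 3 lowest (9.88 and 10.3). Of these, 18 had a positive log2 change. At an unadjusted p below 0.05, 6 endothelial markers were lower (against 5.43% of all genes) and 5 epithelial markers higher (against 7.81%). In limma 0 of either list passed. Markers of macrophages and dendritic cells averaged 5.27 to 5.95 against 5.63 to 5.75 over 20 genes, those of T and NK cells 4.24 to 4.54 against 4.29 to 4.43 over 14 genes, and those of B cells 4.55 to 4.65 against 4.35 to 4.60 over 9 genes. At an unadjusted p below 0.05, 1 T and NK cell marker was lower (Gzma, log2 change -0.38). In the B cell list 1 was higher (Jchain, 1.12), and 0 of either list passed in limma. Within the macrophage and dendritic cell list 11 of 20 genes had a negative log2 change, and 2 were lower at an unadjusted p below 0.05 with 0 passing in limma. Picked after their values were seen, the dendritic cell genes Batf3 (-0.86), Itgax (-0.67) and Zbtb46 (-0.56, a gene known from endothelium too) had negative log2 changes (limma adjusted p = 0.157, 0.399 and 0.354). Other dendritic cell genes of the list, Flt3 (-0.26), Xcr1 (-0.11) and Ccr7 (0.07), changed less (limma adjusted p = 0.557, 0.810 and 0.923). The part of these genes in the members' values was not tested. Over 14 markers of fibroblasts, pericytes and smooth muscle the means ran from 7.42 to 8.19 on allogeneic and from 7.42 to 8.06 on syngeneic arrays, with 0 genes passing in limma, and 2 lower and 3 higher at an unadjusted p below 0.05. In these bulk samples, fewer cells of a type and less RNA per cell cannot be told apart. No detection call was at hand. As a guide to background, 3 Y-linked genes reached at most 3.18 on any array (recipients were female, and the donors' sex was not given), and every value of the 10 genes lay above that. That level is low, since the array medians over all probe sets lay between 4.68 and 4.79. Cd80, Cd86 and Pdcd1lg2 averaged less than these medians (4.12, 4.19 and 4.25). Lying above the Y-linked genes thus does not show that a gene was detected.

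No member passed the test over all genes, in either direction. The test was limma's moderated test with Benjamini-Hochberg adjustment over 22180 genes and a threshold of 0.05, and it called 0.356% of all genes as higher and 0.113% as lower in allogeneic samples. With p left unadjusted, 5 of 10 members were lower at the same threshold (Lgals9, Ido1, Socs1, Cd274 and Socs3) against 5.43% of all genes, and 1 higher (Icosl) against 7.81%. The 4 allogeneic arrays lay wholly below the 4 syngeneic ones in 3 members (Lgals9, Socs3 and Cd40) against 3.36% of genes, and wholly above them in 1 (Icosl) against 5.18%. Log2 changes, allogeneic minus syngeneic, were negative in 9 of 10 members with a median of -0.46, where the median of all genes was -0.0050. The members were listed with earlier results of these arrays known, so these counts describe them and do not test the list.

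**Figure D1:**
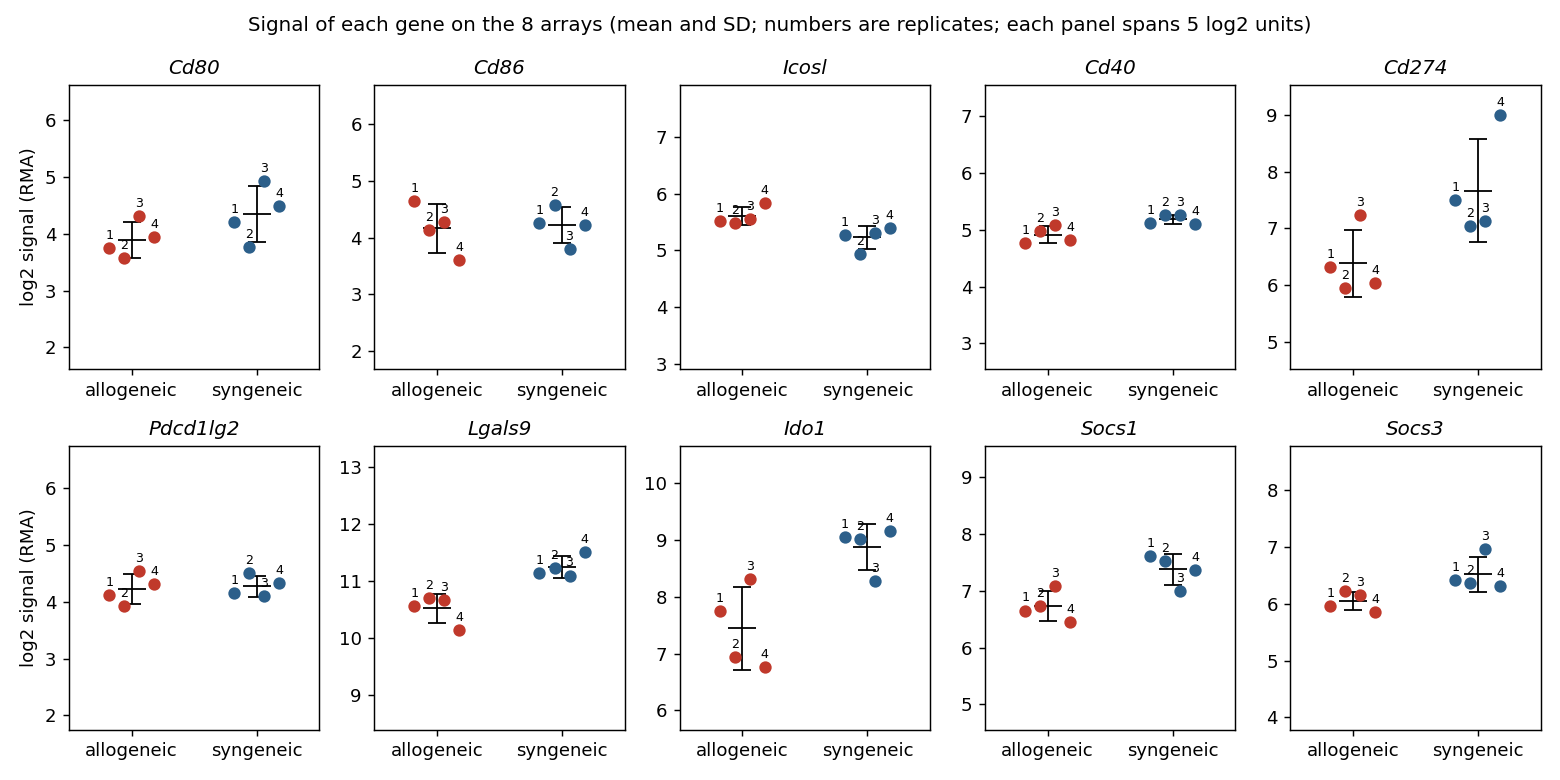
Log2 RMA signal of each gene (vertical axis, each panel spanning the same number of log2 units around its own mean) on the 4 allogeneic arrays at left (red) and the 4 syngeneic arrays at right (blue), with replicate numbers, mean and SD. Lgals9, Socs3 and Cd40 do not overlap between groups with allogeneic arrays lower, Icosl does not overlap with allogeneic arrays higher, and Ido1 and Socs1 overlap only through allogeneic array 3 and syngeneic array 3.

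Among the molecules that restrain T cells, Lgals9 came closest to the threshold. On allogeneic arrays 1 to 4 its log2 signal was 10.57, 10.71, 10.66 and 10.14, and on syngeneic arrays 1 to 4 it was 11.15, 11.22, 11.10 and 11.52. The groups were apart by 0.39, and the lowest sample was allogeneic array 4. Allogeneic arrays averaged 10.52 ± 0.26 and syngeneic arrays 11.25 ± 0.19 (SD, n = 4 each). The log2 change was -0.73 ± 0.14 (SE) with a 95% interval from -1.03 to -0.42 and a limma adjusted p of 0.0521, which did not pass. The ratio of allogeneic to syngeneic signal was 0.604. Its log2 change stayed between -0.79 and -0.57 in 20 other fits, of which 3 passed: those that left dim genes out of the test by either filter (limma adjusted p = 0.0340 and 0.0355) and that with array weights (0.0407).

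Ido1, the enzyme that starts the breakdown of tryptophan to kynurenine, had the most negative log2 change of the 10 genes. It read 7.75, 6.94, 8.32 and 6.76 on allogeneic arrays 1 to 4, against 9.04, 9.02, 8.29 and 9.16 on syngeneic arrays 1 to 4. Allogeneic array 3 lay just above syngeneic array 3, and without either of these arrays the groups did not overlap. The log2 change was -1.43 ± 0.33 (SE, 95% interval from -2.16 to -0.71, limma adjusted p = 0.0943), between an allogeneic mean of 7.44 ± 0.73 and a syngeneic mean of 8.88 ± 0.40 (SD, n = 4 each), and did not pass. In signal this is a ratio of 0.370, allogeneic over syngeneic. Without allogeneic array 3 the log2 change was -1.73 (limma adjusted p = 0.0534). Allogeneic array 3 also had the highest macrophage and dendritic cell marker mean of all 8 arrays (5.95) and the highest Ptprc, the gene of CD45 (6.18), whose part in its Ido1 signal was not tested.

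Cd274, which encodes PD-L1, had a like change and a wider spread. Its signal was 6.33, 5.95, 7.24 and 6.03 on allogeneic arrays 1 to 4, and 7.50, 7.04, 7.13 and 8.99 on syngeneic arrays 1 to 4. Allogeneic array 3 lay within the syngeneic range, and syngeneic array 4 stood above all others. The log2 change was -1.28 ± 0.42 (SE, 95% interval from -2.21 to -0.35, limma adjusted p = 0.220), between an allogeneic mean of 6.39 ± 0.59 and a syngeneic mean of 7.67 ± 0.91 (SD, n = 4 each). It was -0.83 without syngeneic array 4, the array with the highest endothelial marker mean, -0.65 with the endothelial marker mean as a covariate and -0.61 with the epithelial one. Pdcd1lg2, the gene next to Cd274 on chromosome 19 and the source of the other PD-1 ligand, overlapped between the groups. It read 4.12, 3.92, 4.54 and 4.32 on allogeneic and 4.15, 4.51, 4.09 and 4.33 on syngeneic arrays, with a log2 change of -0.05 and a 95% interval from -0.40 to 0.30 (limma adjusted p = 0.937). Changes of more than 0.40 in either direction lie outside that interval, and the signal was low, at most 1.36 above the highest Y-linked value.

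The SOCS genes are induced by the cytokines they restrain, and both were lower in allogeneic samples without passing the test. Socs1 read 6.65, 6.73, 7.08 and 6.46 on allogeneic arrays 1 to 4, against 7.62, 7.53, 7.00 and 7.37 on syngeneic arrays 1 to 4. As for Ido1, the groups overlapped only because allogeneic array 3 lay above syngeneic array 3. The log2 change was -0.65 ± 0.18 (SE, 95% interval from -1.05 to -0.25, limma adjusted p = 0.146). Socs3, which acts on gp130 receptors, read 5.97, 6.22, 6.15 and 5.86 on allogeneic and 6.43, 6.36, 6.97 and 6.31 on syngeneic arrays. All allogeneic arrays lay below all syngeneic ones, by a gap of 0.10, with syngeneic array 3 highest. Its log2 change was -0.47 ± 0.17 (SE, 95% interval from -0.85 to -0.09, limma adjusted p = 0.273). A second probe set of Socs3 had a log2 change of -0.44 ± 0.21 (SE), and there the groups overlapped.

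The sequences before an annotated start of Socs1, Lgals9 and Socs3 are shown because these windows held a match to an interferon or STAT motif and all 3 genes had negative log2 changes. RefSeq promoter windows (GRCm38.p6, from 250 bases before to 50 after an annotated start) were at hand for 7 of the 10 genes. These were Cd274, Pdcd1lg2, Cd80, Icosl, Socs1, Socs3 and Lgals9, and not Cd40, Cd86 and Ido1. For Cd274, Cd80 and Socs3 the window lay inside the annotated span of the gene. Bases before the outermost start of these genes were thus not searched. The windows were searched on both strands for GAAANNGAAA (the interferon-stimulated response element, ISRE, read by interferon regulatory factors), for TTCNNNGAA (the gamma-activated site, GAS, read by STAT dimers) and for the kappa B consensus. Capitals mark the matches in the 250 bases before the start, written 5′ to 3′ on the gene's strand.
Socs1 (chr16:10785537-10785786, minus strand): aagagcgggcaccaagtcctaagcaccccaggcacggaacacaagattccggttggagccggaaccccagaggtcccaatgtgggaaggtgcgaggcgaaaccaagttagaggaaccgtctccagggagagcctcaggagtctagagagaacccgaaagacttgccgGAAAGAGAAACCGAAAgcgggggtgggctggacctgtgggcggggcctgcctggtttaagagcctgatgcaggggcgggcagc
Lgals9 (chr11:78984925-78985174, minus strand): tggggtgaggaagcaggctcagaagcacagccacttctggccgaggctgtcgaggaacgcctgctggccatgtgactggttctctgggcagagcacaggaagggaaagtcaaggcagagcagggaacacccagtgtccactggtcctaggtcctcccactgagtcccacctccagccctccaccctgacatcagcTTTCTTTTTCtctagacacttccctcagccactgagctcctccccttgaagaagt
Socs3 (chr11:117969367-117969616, minus strand): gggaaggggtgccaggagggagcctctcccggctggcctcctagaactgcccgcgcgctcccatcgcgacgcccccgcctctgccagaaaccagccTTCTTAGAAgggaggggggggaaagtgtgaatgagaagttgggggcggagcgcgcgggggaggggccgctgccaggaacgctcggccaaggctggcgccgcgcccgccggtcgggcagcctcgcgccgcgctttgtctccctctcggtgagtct
Socs1 had 2 ISRE matches that overlap, GAAAGAGAAA from base -83 and GAAACCGAAA from base -77. Lgals9 had 1 in the other orientation, TTTCTTTTTC from base -55, and a further match 16 bases into the transcribed part. Socs3 had the GAS match TTCTTAGAA from base -154. An ISRE match was present in 2 of these 7 genes and in 3.99% of the 27025 genes with windows, a GAS match in 1 of 7 and in 9.55% of all, and a kappa B match in 1 of 7 (Pdcd1lg2) and in 5.14% of all. In the windows of Cd274, Cd80 and Icosl none of the 3 motifs was found. A match describes letters and is not a binding site.

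Of the costimulatory ligands, Icosl was the only one of the 10 genes with a positive log2 change. Its signal was 5.52, 5.49, 5.55 and 5.83 on allogeneic arrays 1 to 4 and 5.28, 4.94, 5.31 and 5.39 on syngeneic arrays 1 to 4. Every allogeneic array lay above every syngeneic array, by 0.10 at the closest. This gave a log2 change of 0.37 ± 0.15 (SE, 95% interval from 0.05 to 0.69, limma adjusted p = 0.304), a ratio of 1.29, and did not pass. It remained positive in the 20 other fits, from 0.28 to 0.52, and the highest value came with the endothelial covariate.

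Cd80 and Cd86, the CD28 ligands of professional antigen-presenting cells, were dim. Cd80 read 3.75, 3.57, 4.31 and 3.94 on allogeneic and 4.20, 3.76, 4.93 and 4.49 on syngeneic arrays, with a log2 change of -0.45 ± 0.24 (SE, 95% interval from -0.98 to 0.08, limma adjusted p = 0.456). The groups overlapped, and without syngeneic arrays 3 and 4 the log2 change was -0.09. Cd86 read 4.64, 4.13, 4.27 and 3.61 on allogeneic and 4.26, 4.58, 3.81 and 4.22 on syngeneic arrays. Its groups covered nearly the same range, and its log2 change of -0.05 had a 95% interval from -0.54 to 0.44 (limma adjusted p = 0.951). The lowest values of Cd80 and Cd86 were 0.40 and 0.43 above the highest Y-linked value.

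Cd40, through which a T cell carrying CD40 ligand activates its partner, separated the groups by a small margin. It read 4.77, 4.99, 5.08 and 4.83 on allogeneic and 5.13, 5.25, 5.26 and 5.11 on syngeneic arrays. Its signal was low too, with a mean of 5.05 over all arrays where the median gene averaged 5.33. The groups did not overlap, with a gap of 0.02 between allogeneic array 3 and syngeneic array 4. For Cd40 the log2 change was -0.27 ± 0.13 (SE, 95% interval from -0.55 to 0.01, limma adjusted p = 0.390).

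**Figure D2:**
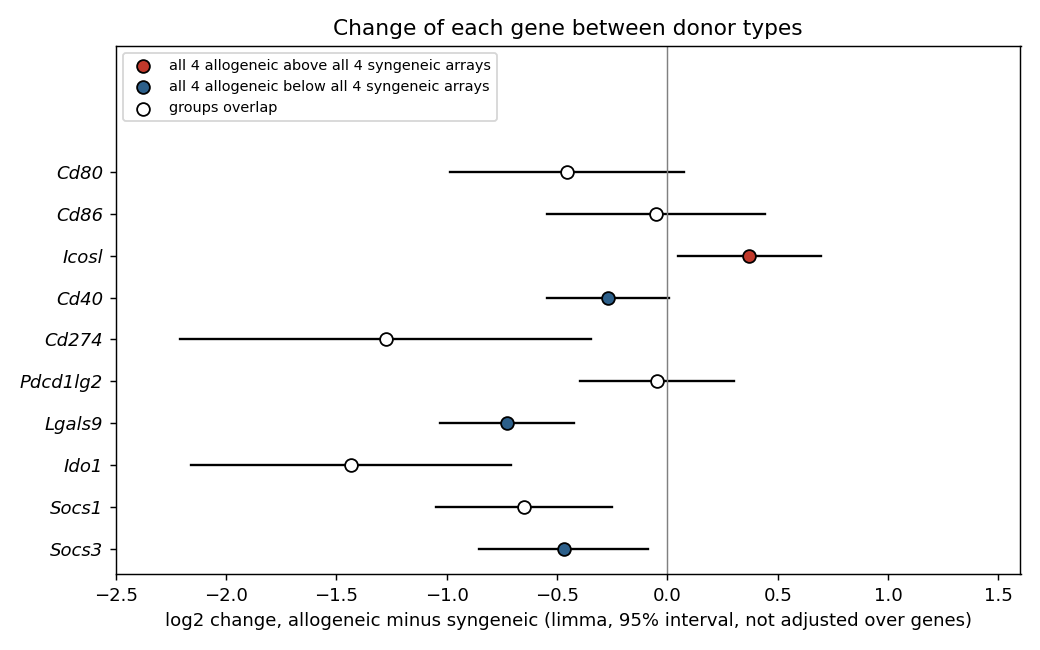
Log2 change of each gene (horizontal axis, allogeneic minus syngeneic) with limma's 95% interval, not adjusted over genes; filled points mark genes whose groups do not overlap. The intervals of Icosl on the positive side and of Cd274, Lgals9, Ido1, Socs1 and Socs3 on the negative side leave out 0, and no gene passed the adjusted threshold.

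Members differed in how far their log2 change moved when cell type signal entered the fit. With the endothelial marker mean as a covariate, the log2 change of Ido1 was -1.42 (-1.43 without it), that of Socs1 -0.73 (-0.65), that of Lgals9 -0.67 (-0.73), that of Socs3 -0.47 (also -0.47) and that of Cd40 -0.28 (-0.27). In the same fit the log2 change of Cd274 was -0.65 (-1.28 without the covariate) and that of Cd80 -0.14 (-0.45), while Icosl had 0.52 (0.37). Cd86 was at -0.26 (-0.05) and Pdcd1lg2 at -0.01 (-0.05). For Ido1, Socs1, Lgals9, Socs3, Cd40, Cd86 and Pdcd1lg2 the value moved by less than its standard error, and for Cd274 and Cd80 by more. Icosl moved by about its standard error, which was 0.15 without and 0.16 with the covariate. With the epithelial marker mean, here taken without Lgals4, Ido1 was at -1.39, Socs1 at -0.71, Lgals9 at -0.57, Cd274 at -0.61 and Cd80 at -0.24. Without syngeneic arrays 3 and 4 the values were -1.59 for Ido1, -0.84 for Socs1, -0.67 for Lgals9, -0.88 for Cd274 and -0.35 for Socs3. None of these fits called a member. With p unadjusted, 4 members were lower and 1 higher without syngeneic arrays 3 and 4 (against 4.52% and 6.2% of all genes), 4 and 1 with the endothelial covariate (against 4.07% and 6.18%), and 3 and 1 with the epithelial one (against 3.9% and 5.73%). Without syngeneic arrays 3 and 4 the groups did not overlap in 5 members with allogeneic arrays lower (Cd40, Ido1, Lgals9, Socs1 and Socs3, against 10% of all genes) and in 1 with them higher (Icosl, against 10.7%).

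**Figure D3:**
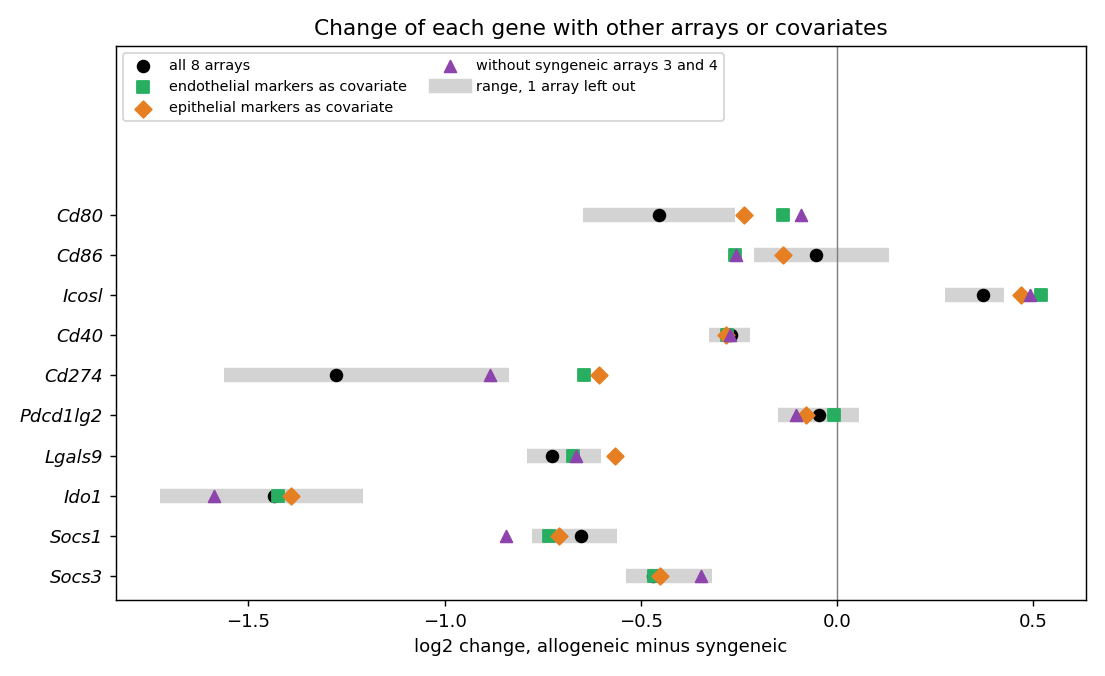
Log2 change of each gene (horizontal axis, allogeneic minus syngeneic) from all 8 arrays (black circles), with the endothelial (green squares) or epithelial (orange diamonds) marker mean as covariate, and without syngeneic arrays 3 and 4 (purple triangles); grey bars span the 8 fits that each left out 1 array. Ido1 lies between -1.59 and -1.39 in all 4 settings drawn as symbols, while Cd274 lies between -1.28 and -0.61.

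The members also differed in which array of a group was highest. Allogeneic array 3 was the highest of the allogeneic arrays for 6 of 10 members (Cd274, Pdcd1lg2, Cd40, Cd80, Ido1 and Socs1) and the lowest for none. Allogeneic array 4 was the lowest for 5 (Cd86, Ido1, Socs1, Socs3 and Lgals9). Syngeneic array 3 was the lowest of its group for 5 (Pdcd1lg2, Cd86, Ido1, Socs1 and Lgals9), and the highest for 3 (Cd40, Cd80 and Socs3). Syngeneic array 4, with the highest endothelial signal, was the highest for 4 (Cd274, Icosl, Ido1 and Lgals9). Leaving out allogeneic array 3 left 7 members lower at an unadjusted p below 0.05, the 5 above with Cd40 and Cd80, against 4.82% of all genes. Leaving out any of the other 7 arrays left 4 to 6 members lower, with 4 (Cd274, Ido1, Lgals9 and Socs1, against 4.31%, 4.86% and 4.59% of all genes) without allogeneic array 1, allogeneic array 4 or syngeneic array 3. Icosl was no longer higher at that p without allogeneic array 4 or syngeneic array 2, which left 0 members higher.

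Some genes outside the set had a course over the 8 arrays much like that of a member. Over 19392 genes without predicted ones, the course of Lgals9 was closest to those of Il18bp, a secreted inhibitor of IL-18 (Pearson r = 0.988), Rnf213 (0.981) and Ikbkb, an IkB kinase (0.981). The courses closest to Ido1 were those of Ska1 (0.973), Noc4l (0.970) and Scly (0.969), and those closest to Socs1 were Fam47c (0.965), Ska1 (0.960) and Cpsf4l (0.958). Fam47c was at background level, averaging 3.13 on allogeneic and 3.64 on syngeneic arrays, where the highest Y-linked value was 3.18. Il18bp had a log2 change of -1.21 ± 0.26 and Rnf213 of -0.94 ± 0.19 (SE, limma adjusted p = 0.0726 and 0.0590). The difference between groups enters these correlations, each is the highest of many, and they are given without a test.

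The T cell side was at low signal, with 6 receptors or ligands of the members (Cd28, Ctla4, Icos, Pdcd1, Cd40lg and Havcr2) and 5 genes of T cell receptor signalling (Cd3d, Cd3e, Cd3g, Lat and Zap70) measured. None of the 11 passed in limma, and 1, Lat, was lower at an unadjusted p below 0.05. All 11 averaged below 5, and Ctla4 and Havcr2, the genes of CTLA-4 and TIM-3, averaged no more than the highest Y-linked value. Lat, an adaptor of T cell receptor signalling that other cells also carry, read 4.08, 4.17, 4.59 and 4.35 on allogeneic and 5.21, 5.29, 4.82 and 4.99 on syngeneic arrays. Its groups did not overlap, and its log2 change of -0.78 ± 0.16 (SE) did not pass (limma adjusted p = 0.0616). Cd3e (0.28), Cd28 (0.21) and Cd3d (-0.18) had smaller changes, and the list's median was 0.01.

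Other costimulatory and inhibitory ligands went both ways. Of 21 measured none passed in limma, 2 were lower and 2 higher at an unadjusted p below 0.05, 12 had a negative and 9 a positive log2 change, and the median was -0.07. Nectin3 (0.55) and Cd24a (0.44) were higher and Pvr (-0.68), a ligand of CD226 and TIGIT, and the B7 family gene Cd276 (-0.33) lower, each without passing (limma adjusted p = 0.212, 0.215, 0.260 and 0.332).

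Most genes listed for cytokine signalling and for NF-kB and CD40 signalling had negative log2 changes. Of 22 cytokine receptors, kinases, STATs and IRFs, 16 had a negative log2 change with a median of -0.24, 7 were lower and 1 higher at an unadjusted p below 0.05, and 1 fell after adjustment. This was Stat2, a partner of IRF9 at ISRE sites, with 8.16, 8.53, 8.12 and 7.94 on allogeneic and 9.16, 9.04, 9.41 and 9.85 on syngeneic arrays (log2 change -1.18 ± 0.19 SE, limma adjusted p = 0.0339). Leaving out single arrays ended the call in 6 of 8 cases (limma adjusted p up to 0.114 without allogeneic array 1), without syngeneic arrays 3 and 4 (0.0809) and with either covariate (0.0845 and 0.0731). Nlrc5, a transactivator of class I genes, was at -1.18, Il6st, the gp130 receptor chain upstream of Socs3, at -0.60 and Irf9 at -0.58, none past the threshold (limma adjusted p = 0.150, 0.245 and 0.294). Of 13 genes of NF-kB and CD40 signalling, 11 had a negative log2 change, the median was -0.41 and none passed in limma, with 6 lower at an unadjusted p below 0.05. Rel (-0.70), Map3k14 (-0.47), the kinase NIK that acts downstream of CD40, and the feedback inhibitors Tnfaip3 (-0.51) and Nfkbia (-0.45) had the smallest p-values (limma adjusted p = 0.0526, 0.185, 0.214 and 0.222).

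Relatives of Socs1, Socs3, Ido1 and Lgals9 had medians near 0. Of 14 other SOCS and cytokine feedback genes none passed in limma, 1 was lower and 1 higher at an unadjusted p below 0.05, and the median was 0.01. Usp18, a brake on type I interferon receptors, was at -1.20 ± 0.38 (SE, limma adjusted p = 0.200) with syngeneic array 4 far above the rest at 8.03, and Ptpn6, the phosphatase SHP-1, at 0.49. Of 15 other genes of tryptophan use none passed in limma, 4 were lower and 1 higher at an unadjusted p below 0.05, and the median was -0.02. Kyat3, a kynurenine aminotransferase, was at 0.79 ± 0.19 with all allogeneic arrays above all syngeneic ones, Tph1, the serotonin-forming hydroxylase of enterochromaffin cells, at -1.45, Wars, the tryptophanyl-tRNA synthetase, at -0.49 and the amino acid transporter subunit Slc3a2 at -0.59 (limma adjusted p = 0.104, 0.222, 0.238 and 0.308). Of 9 genes listed with the galectins none passed in limma, 1 was lower and 1 higher at an unadjusted p below 0.05, and the median was -0.03. Lgals3bp, which encodes a galectin-binding glycoprotein, was at -0.39 ± 0.10 with groups that did not overlap, and the epithelial galectin Lgals4 at 0.18 (limma adjusted p = 0.121 and 0.363).

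Among 21 other molecules that restrain T cells 1 fell, 2 were lower and 1 higher at an unadjusted p below 0.05, and the median log2 change was -0.31. This was H2-Q10, a secreted class I molecule known from mouse liver, which read 6.21, 6.10, 6.56 and 6.09 on allogeneic and 7.07, 7.04, 7.02 and 6.96 on syngeneic arrays (log2 change -0.79 ± 0.14 SE, limma adjusted p = 0.0491). Class I genes are close copies of each other and their probes can cross-react, so this value is uncertain, and averaging all its probe sets gave -0.47 (limma adjusted p = 0.258). It kept the call in 7 of 20 other fits, and leaving out single arrays ended it in 7 of 8 cases, among them those without allogeneic array 1 (limma adjusted p = 0.145), 2 (0.154) or 4 (0.132) and without syngeneic array 1 (0.107) or 3 (0.119). Nos2, the inducible nitric oxide synthase, read 6.43, 6.46, 6.06 and 4.67 on allogeneic and 7.47, 7.87, 7.83 and 7.36 on syngeneic arrays, without overlap. Its log2 change of -1.73 ± 0.35 (SE) did not pass (limma adjusted p = 0.0616). Nt5e (0.53), which makes adenosine, and the arginase gene Arg2 (0.66) had positive changes that did not pass (limma adjusted p = 0.295 and 0.377).

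**Figure D4:**
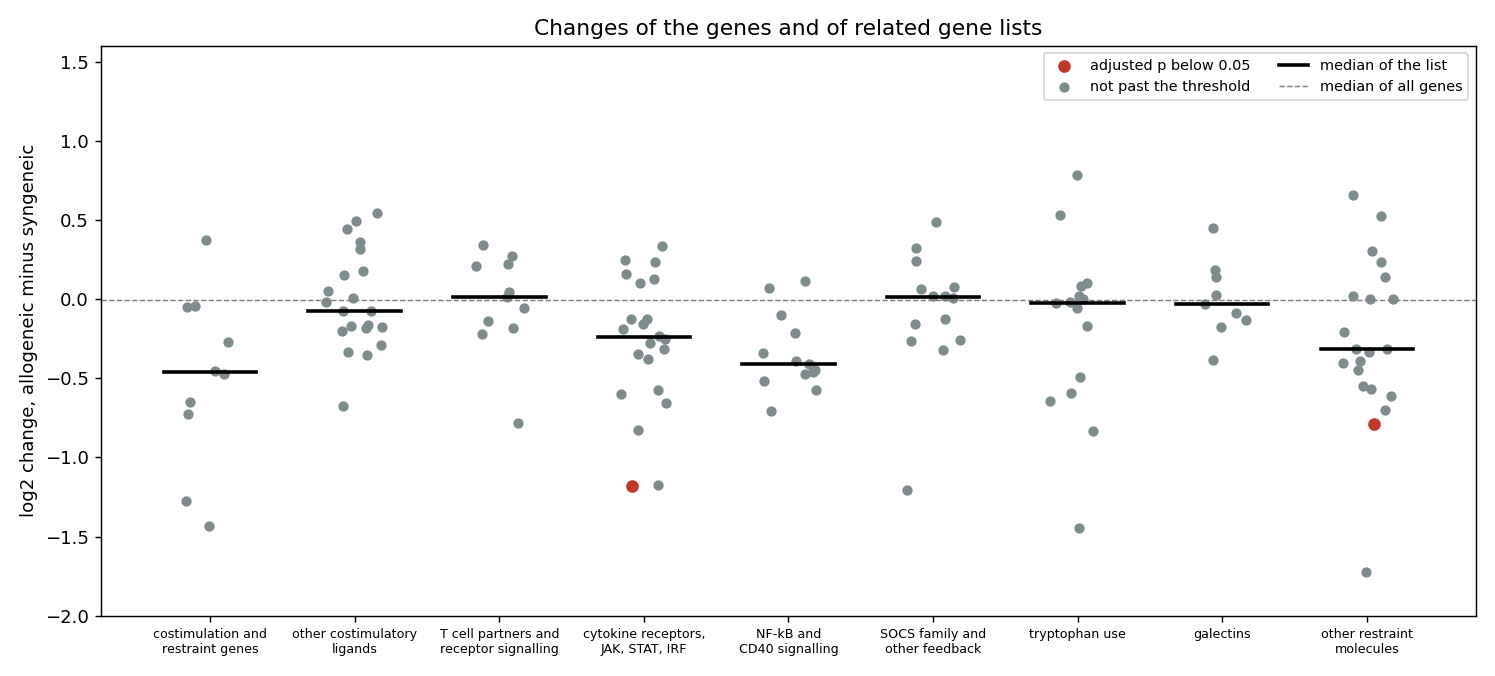
Log2 change (vertical axis, allogeneic minus syngeneic) of the 10 genes at left and of the related gene lists, 1 point per gene, with each list's median as a black bar and the median of all genes as a dashed line. Only Stat2 and H2-Q10 (red) passed the threshold among the genes drawn.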

How the data were processed

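RNA of cells sorted from digested colon was amplified from 700 pg per sample and hybridised to 8 arrays, per the labels' protocols. The table the authors deposited holds log2 signals of 41345 probe sets. Per the submitters' processing notes, RMA in Affymetrix Expression Console 1.4.1 produced them. The platform annotation gave 1 gene symbol to 23521 of them, several to 1814 and none to 16010. The brightest single-symbol set per gene gave 22180 genes, and Socs3 was the one member with a second set. Groups and replicate numbers came from the sample titles, which call the arrays biological replicates. A model with donor type alone was fitted to all genes, with no filter on dim genes (R 4.3.3, limma 3.58.1, moderated with an intensity trend), and p-values were adjusted over all genes by Benjamini-Hochberg with a threshold of 0.05. The fit was tested on simulated data with independent noise per gene and known changes added to some brighter genes. Those changes were larger than the changes of most members, and no differences in cell mixture between arrays were simulated. That test thus cannot show how the fit behaves with such differences or with smaller changes. Named genes were the 10 members, every gene past the threshold and otherwise up to 4 with the smallest p in each related list, and the 3 genes most like each of the 3 members with the smallest p. The members and lists were chosen with earlier results of these data known. Alternatives changed the variance prior, dim gene filters, scaling, array weights, probe set rule, replicate block, covariates, arrays and threshold. The epithelial covariate was the mean of the listed epithelial markers without Lgals4. No batch or date came with the values, so none was modelled.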

Additional observations from a re-analysis of the deposited data

Results flagged for a closer look

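On syngeneic array 3, 2 members stood far from the other 3 syngeneic arrays. Ido1 was low there at 8.29, where the others lay between 9.02 and 9.16, a gap of 0.84 of the group's range. Socs3, on its brighter probe set, was high there at 6.97, where the others lay between 6.31 and 6.43, a gap of 0.83 of the range. Both exceed the critical gap for a group of 4, that of Socs3 only just. Groups of each member were examined in this way, 20 in all, and chance alone flags about 1 in 20. The second probe set of Socs3 read 6.56, 6.19, 6.53 and 5.98 on syngeneic arrays 1 to 4. Array 3 was not the highest there and did not stand apart, so the Socs3 flag rests on the brighter probe set alone. Without syngeneic array 3 the log2 change was -1.63 for Ido1 and -0.32 for Socs3, and neither passed.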

How the results depend on the processing

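No member was called as higher in any alternative, and the count of members called as lower was 0 in all but 4: it was 1 (Lgals9) with either dim gene filter and with array weights, and 2 (Lgals9 and Ido1) at a threshold of 0.10. Leaving out 1 array gave 0 in every case. Signs held for 8 members throughout. With 1 array left out, Pdcd1lg2 ran from -0.15 to 0.056 and was positive without allogeneic array 2 (0.056) or syngeneic array 2 (0.034), and Cd86 ran from -0.21 to 0.13 and was positive without allogeneic array 4 (0.13) or syngeneic array 2 (0.068), all uncalled. The counts of calls over all genes moved as well. Higher genes, 79 as reported, numbered 138 and 146 with the dim gene filters, 203 at a threshold of 0.10, 26 without syngeneic arrays 3 and 4, 19 and 6 with the endothelial and epithelial covariates, and 4 to 145 with 1 array left out. Lower genes, 25 as reported, numbered 55, 56, 102, 12, 9, 5 and 4 to 35 in the same order, and 39 with array weights. The replicate block gave 40 higher and 28 lower genes and 0 members in either direction, and Stat2 and H2-Q10 did not pass with it (limma adjusted p = 0.0685 and 0.0794). Deviations of same-numbered arrays correlated between -0.10 and 0.10, and 1 of the 4 numbers was its own best match. Differences in cell mixture between arrays enter these correlations too, so they cannot decide whether same-numbered arrays were paired. The labels do not say whether they were. The causes were not tested beyond what each setting changes: fewer genes are adjusted for with a filter, and fewer arrays enter when some are left out.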
